A study of Homo sapiens with 27 samples.

Results

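COXFA4L2, listed on older annotation as NDUFA4L2 (gene ID 56901), was followed over 27 Illumina bead arrays of the human neuroblastoma line SK-N-BE(2)c. It is 1 of 12631 genes measured, and was selected on its rise over the control in DMSO hypoxia in these same data. Its members are all probes that the platform annotation assigns to the gene, which was 1 probe (ILMN_1756573). The non-normalized intensity table holds 48107 probes, and not all of them carry a name. Of the 31153 probes that passed the background filter, 14753 carry no name, and a further probe of the gene among them would not be seen. The cells were grown in hypoxia for 24, 48 or 72 h with PP242, a compound that blocks the kinase mTOR in both of its complexes, or with its solvent DMSO. PP242 had 4 arrays at each time, DMSO had 3 arrays at 24 h and 4 arrays at 48 and at 72 h, and a 0 h control had 4 arrays. The control label names neither DMSO nor hypoxia, so the parts of low oxygen, solvent and culture time cannot be told apart in any comparison with it. The dose of PP242 and the oxygen level are not given in the sources used here. All 27 samples come from 1 cell line with no other genetic change named, and no label says that replicates were separate cultures. The p-values therefore rest on sample-to-sample spread that may be technical.

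COXFA4L2 encodes a small mitochondrial protein and belongs to a family with COXFA4 (older symbol NDUFA4), a subunit first assigned to respiratory complex I and later to complex IV, and COXFA4L3 (older symbol C15orf48). Hypoxia-inducible factors (HIF) are transcription factors whose alpha subunits, HIF1A and EPAS1, are destroyed when oxygen is plentiful and accumulate when it falls. COXFA4L2 is known as a HIF target that lowers oxygen use and complex I activity in hypoxic cells, and in normal tissue it is a marker of pericytes. mTOR complex 1 is known to promote translation, and HIF1A is among the proteins whose synthesis it raises.

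The gene lies on chromosome 12 (chr12:57234903-57240762, GRCh38.p14, minus strand, 5860 bases). RefSeq gives it a promoter window of 250 bases before to 50 bases after the start of transcription at chr12:57240713-57241012. It is shown beside the window of its paralog COXFA4 (chr7:10940104-10940403, minus strand), because both genes were measured and their levels behaved differently. Each is printed on the gene's own strand, 5′ to 3′, and capitals mark matches to ACGTG or GCGTG, the core of the hypoxia response element, searched on both strands with no overlapping matches in these 2 windows.
COXFA4L2: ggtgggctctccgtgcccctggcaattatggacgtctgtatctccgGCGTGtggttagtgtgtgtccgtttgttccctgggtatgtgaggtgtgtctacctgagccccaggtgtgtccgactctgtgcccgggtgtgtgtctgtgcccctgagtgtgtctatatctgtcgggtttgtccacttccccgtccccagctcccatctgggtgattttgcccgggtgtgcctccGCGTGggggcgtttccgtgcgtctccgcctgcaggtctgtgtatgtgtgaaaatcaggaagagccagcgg
COXFA4: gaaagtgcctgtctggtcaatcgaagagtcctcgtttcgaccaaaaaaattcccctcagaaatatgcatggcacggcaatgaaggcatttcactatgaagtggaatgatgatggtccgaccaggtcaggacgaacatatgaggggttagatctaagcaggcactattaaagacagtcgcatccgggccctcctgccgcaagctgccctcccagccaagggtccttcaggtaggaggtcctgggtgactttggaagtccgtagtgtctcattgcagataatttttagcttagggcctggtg
The COXFA4L2 window held GCGTG 2 times, starting 204 and 20 bases before the start, and held no ACGTG. A second RefSeq window for the gene (chr12:57240695-57240994) held the same 2 matches, 222 and 38 bases before its start. The COXFA4 window held no match, and the COXFA4L3 window on chromosome 15 held 4. Over all 35116 RefSeq windows of 300 bases, 48.4% held at least 1 match to either motif and 36.5% held GCGTG. A match is a description of these letters and no evidence of binding.

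The arrays were first checked against the labelled cell type. Of 13 neuroblastoma markers, 10 were measured, and all 10 were above background on all 27 arrays, with MYCN at a mean intensity of 18718. Of 21 markers of other cells, 12 were measured. The endothelial markers PECAM1, CDH5 and VWF, the immune marker PTPRC, the Schwann cell marker SOX10 and the smooth muscle marker MYH11 did not pass the background filter. The myeloid marker CD14 (mean intensity 143) and the smooth muscle marker ACTA2 (mean intensity 231) were dim but above background on all 27 arrays. The fibroblast markers DCN (mean intensity 211) and LUM (mean intensity 133) were above background on 22 and 21 arrays. CSPG4, a marker of pericytes and smooth muscle (mean intensity 115), was above background on 17 arrays. COL1A1 was above background on 9 arrays, and COL1A2, CD68, HBB and HBG1 on 4 each. The pericyte markers RGS5 (mean intensity 2737) and PDGFRB (mean intensity 489) were above background on all 27 arrays of this cultured line.

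COXFA4L2 was at or near background in the 0 h control, and higher on every hypoxia array with DMSO. The deposited intensities of the 4 control arrays were 109, 124, 109 and 99. The backgrounds of these arrays lay between 96.4 and 106, and 2 of the 4 were above background. After 24 h in DMSO the 3 arrays read 624, 505 and 1298. After 48 h in DMSO the 4 arrays read 2233, 1931, 2453 and 1340. Every DMSO array was above every control array, and each later DMSO group lay above the group before it without overlap, as the 4 arrays at 72 h read 3360, 3070, 2818 and 2590. After normalization the groups of 19.4% of all genes did not overlap between 24 and 48 h and those of 9.78% between 48 and 72 h. DMSO and control groups did not overlap for 11.9%, 15.2% and 23.6% of genes at 24, 48 and 72 h, and nothing is read from this for a gene chosen on that difference.

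With PP242 the same probe stayed within a much lower range at all 3 times. At 24 h the 4 PP242 arrays read 315, 207, 473 and 156. At 48 h they read 365, 357, 469 and 198. At 72 h they read 362, 416, 570 and 124. All 12 PP242 arrays were above background, and 11 of them read above every control array, while PP242 at 72 h replicate 4 (124) tied the highest control array. After normalization all 12 lay above the controls, the lowest at 6.18 against 5.73, and the PP242 groups overlapped one another. PP242 and control groups did not overlap for 22.0%, 17.4% and 15.9% of genes at the 3 times. In every PP242 group the array of sample number 3 was the highest and that of number 4 the lowest.

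**Figure D1:**
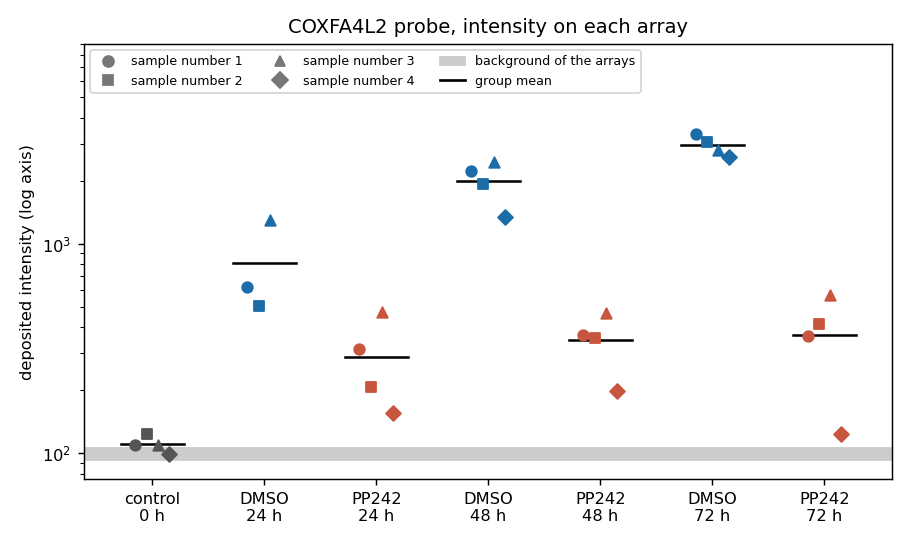
Deposited intensity of the COXFA4L2 probe on each of the 27 arrays (log axis), by group, with 1 symbol per sample number, a black line at each group mean and the array background as a grey band. Control arrays sit at 99 to 124, DMSO arrays climb from 505 at 24 h to 3360 at 72 h, and PP242 arrays stay between 124 and 570.

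On the log2 scale after background correction and quantile normalization, the spread was widest under PP242. The control level was 5.31 ± 0.33 (SD, n = 4), the lowest of the 7 groups. The 3 PP242 groups followed at 7.57 ± 0.90 for 24 h, 7.91 ± 1.22 for 72 h and 8.18 ± 0.79 for 48 h (SD, n = 4 each). The DMSO groups came last, in order of time, at 9.13 ± 0.73 (SD, n = 3), 10.85 ± 0.52 (SD, n = 4) and 11.50 ± 0.11 (SD, n = 4). Neighbours in this order did not overlap at 3 of 6 steps, namely control to PP242 at 24 h, DMSO at 24 to 48 h, and DMSO at 48 to 72 h. The other neighbours overlapped, including PP242 at 48 h and DMSO at 24 h, which differed by 0.95 against a pooled SD of 0.77. From the lowest to the highest group mean the gene spanned 6.19, the widest span of the 12631 genes measured. This is the rise on which the gene was selected, taken from a control near background, and without background correction the span was 4.76.

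The gene was chosen for its rise in hypoxia, so its differences from the control are given without a test. In DMSO it was higher than in the control by 3.82 (SE 0.50) at 24 h, by 5.54 (SE 0.46) at 48 h and by 6.19 (SE 0.46) at 72 h. In this setting these were the second largest rise of all genes at 24 h, behind CRH, which encodes the stress hormone corticotropin-releasing hormone, and the largest at 48 and 72 h. In PP242 it was higher than in the control by 2.26 at 24 h, 2.87 at 48 h and 2.60 at 72 h (SE 0.46 each), ranks 14, 5 and 5 among the rises. The sizes depend on how the control's near-background signal is handled: without background correction the DMSO differences were 2.54, 4.14 and 4.76, at ranks 4, 2 and 1. The same arrays of the control enter all 6 values. Between DMSO times the level was higher by 1.72 (SE 0.50) from 24 to 48 h and by 0.65 (SE 0.46) from 48 to 72 h.

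COXFA4L2 was lower with PP242 than with DMSO at each time, and the estimated factor was greater at each later time. Neither step of that growth was called in the main model (limma adjusted p = 0.421 from 24 to 48 h and 0.728 from 48 to 72 h). The call of 72 h against 24 h depended on the arrays and settings used, as given below. At 24 h the log2 change was -1.56 (SE 0.50, 95% interval -2.58 to -0.54, limma adjusted p = 0.0241), a 2.94-fold lower level. At 48 h it was -2.68 (SE 0.46, 95% interval -3.62 to -1.73, limma adjusted p = 0.000235), 6.39-fold lower. At 72 h it was -3.59 (SE 0.46, 95% interval -4.53 to -2.64, limma adjusted p = 4.10e-06), 12.0-fold lower. Among all 12631 genes, 11.3%, 5.79% and 5.47% were called lower (adjusted p under 0.05) with PP242 at 24, 48 and 72 h. COXFA4L2 ranked 162 among the falls at 24 h, 3 at 48 h, behind IGFBP5 and S100A4, and 1 at 72 h. These comparisons hold no control array but share the DMSO arrays with the rise by which the gene was chosen, so they are not independent of that choice.

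The normalized groups did not overlap at 48 and 72 h, which held for 13.9% and 14.2% of all genes, and overlapped at 24 h, where the groups of 31.8% of genes did not overlap. The overlap at 24 h came from the PP242 array numbered 3 (8.69) and the DMSO array numbered 2 (8.64). The call at 24 h was lost without DMSO replicate 3 (-1.14, limma adjusted p = 0.159), without PP242 replicate 4 (-1.21, limma adjusted p = 0.106) and without PP242 replicate 2 (-1.46, limma adjusted p = 0.0519). The calls at 48 and 72 h held under every array left out in turn, with changes between -2.99 and -2.36 and between -3.96 and -3.01.

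Arrays with the same sample number were compared in pairs as well, and the PP242 array was lower in 11 of 11 pairs. At 24 h the pairs differed by -0.98, -1.37 and -1.28 for numbers 1 to 3, and there is no DMSO array numbered 4. At 48 h the 4 pairs differed by -3.17, -2.49, -2.15 and -2.90. At 72 h they differed by -3.45, -3.28, -2.44 and -5.18. Every pair at 48 and 72 h differed by more than every pair at 24 h.

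**Figure D2:**
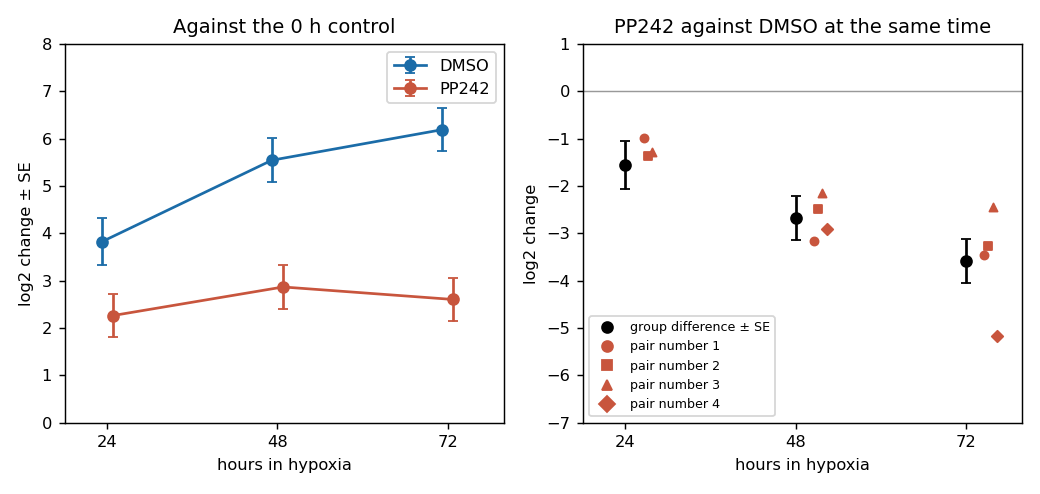
Left, log2 change of COXFA4L2 against the 0 h control (± SE) at 24, 48 and 72 h in DMSO and PP242; right, PP242 against DMSO at the same time (black, ± SE) with each same-number pair of arrays as a coloured symbol. DMSO climbs from 3.82 to 6.19 while PP242 stays between 2.26 and 2.87, and the 11 pairs lie between -0.98 and -5.18.

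As a share of signal, taking each array's background from its intensity, the probe kept 26.6% of the DMSO mean with PP242 at 24 h, 13.2% at 48 h and 9.37% at 72 h. In these units DMSO went from 708 ± 426 (SD, n = 3) at 24 h to 1891 ± 485 (SD, n = 4) and 2860 ± 329 (SD, n = 4). PP242 went from 188 ± 138 to 249.9 ± 113 and 268 ± 181 (SD, n = 4 each), and the control was at 10.7 ± 10.7 (SD, n = 4). The DMSO groups did not overlap between times, while the PP242 groups did. The 24 h share sets a PP242 mean that holds array number 4, its lowest, against a DMSO mean without such an array.

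Within PP242, no change between times passed the test. From 24 to 48 h the difference was 0.60 (95% interval -0.34 to 1.55, limma adjusted p = 0.740), in a comparison that called 1.14% of genes. From 48 to 72 h it was -0.26 (95% interval -1.21 to 0.68, limma adjusted p = 1.00), where 0.00792% of genes, 1 gene, were called, and the sign turned without PP242 48 h replicate 3 (0.05) or PP242 72 h replicate 4 (0.31).

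The PP242 effect was larger at 72 h than at 24 h by -2.03 (SE 0.68, limma adjusted p = 0.0411), in a test that called 15.2% of genes. That call was lost when only the 4 groups concerned were fitted (limma adjusted p = 0.0553), with 1 median per array in place of quantile normalization (-1.77, limma adjusted p = 0.0812), and without any 1 of 9 single arrays. Those were DMSO 24 h replicates 1 and 2, PP242 24 h replicates 1 and 3, all 4 DMSO 72 h replicates and PP242 72 h replicate 4, with adjusted p up to 0.125 and a difference of -1.45 without the last. A model with sample number as a further term, the block, called it (-2.30, limma adjusted p = 0.000238). The 48 h effect exceeded the 24 h effect by -1.12 (SE 0.68, limma adjusted p = 0.421, 5.07% of genes called), and with the block by -1.39 (limma adjusted p = 0.0372). The 72 h effect differed from the 48 h effect by -0.91 (SE 0.65, limma adjusted p = 0.728, 0.602% of genes called).

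The spread of COXFA4L2 within groups followed the sample number. Number 4 was the lowest array in 5 of its 6 groups, and number 3 was the highest in 5 of 7. Under PP242, the mean deviation from the group mean was 1.06 for arrays numbered 3 and -1.24 for arrays numbered 4, on the log2 scale. Probes above background numbered 20934 to 22720 on arrays numbered 4 and 20729 to 22843 on all arrays. The cause of the differences between sample numbers was not tested. Without any array numbered 4, PP242 against DMSO was -1.21 (limma adjusted p = 0.0127) at 24 h, -2.60 at 48 h and -3.06 at 72 h. With the block, the 24 h change was -1.29 (limma adjusted p = 0.00300).

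**Figure D3:**
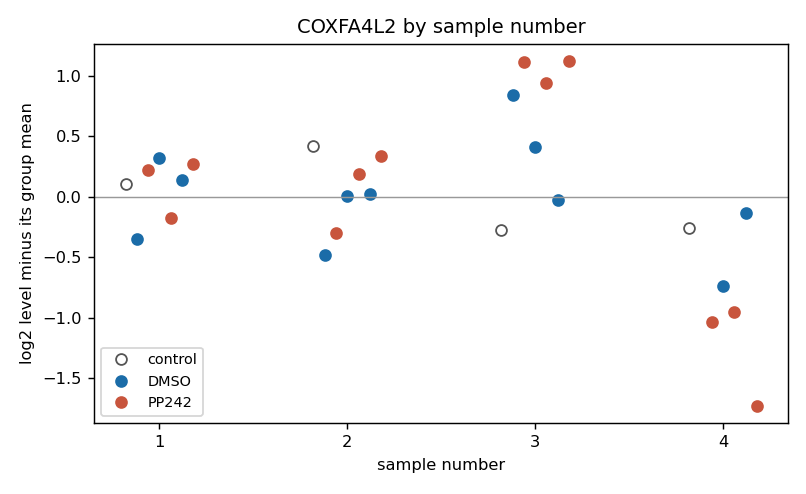
Deviation of COXFA4L2 from its group mean (log2) on each array, by sample number, with DMSO, PP242 and control arrays coloured. PP242 arrays numbered 3 average 1.06 above and those numbered 4 average -1.24, while those numbered 1 and 2 average 0.10 and 0.08.

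Some markers of other cells were lower with PP242. Of the 12 measured, 4, 6 and 3 were called lower at 24, 48 and 72 h, against 11.3%, 5.79% and 5.47% of all genes, and 8, 6 and 9 were not called. The fibroblast marker DCN changed by -1.38, -2.55 and -2.44 at the 3 times, each called, and was not above background on any PP242 array at 72 h, which made it at least 4.56-fold lower there. The smooth muscle actin gene ACTA2 changed by -0.04 (not called), -2.03 and -2.07, and PDGFRB by 0.21 (not called), -1.16 and -1.37. RGS5, the brightest pericyte marker, changed by -0.08, 0.11 and 0.17 and was not called. The summed intensity of the 12, of which RGS5 is the brightest, ranged from 4374 to 5148 over DMSO arrays at 72 h. Over PP242 arrays at 72 h it ranged from 2915 to 5670. The part of these genes in the COXFA4L2 result was not tested.

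The 2 paralogs had other levels. COXFA4 was among the bright probes, at 8498, 8910, 11001 and 4292 on the control arrays and 8316, 7819, 7025 and 6672 on the DMSO arrays at 72 h. Its DMSO differences from the control were 0.12, -0.04 and -0.28 at 24, 48 and 72 h, none of them called. With PP242 against DMSO it fell by 0.55 at 24 h (limma adjusted p = 0.0408), and at 48 and 72 h its values were -0.35 and -0.01, not called. The fall at 24 h was not called with 1 median per array or with no filter on dim probes. COXFA4L3 had 3 probes, and the 1 kept for the test read 92 to 130 over the 27 arrays, close to background throughout, with differences of DMSO from the control and of PP242 from DMSO between -0.14 and 0.29, none called.

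Among the other subunits of complex IV, to which COXFA4 belongs, 9 of 16 were measured, and 1 rose in DMSO at each time (2 at 48 h with the block). Over all genes 0.831%, 6.72% and 11.3% were called higher at 24, 48 and 72 h, so little is read from the count of 1 at 48 and 72 h. The block called 23.6% of all genes at 48 h, a share in either direction and so no like measure for the 2 higher. The 1 subunit called at each time was COX4I2, the isoform of subunit 4 known to replace COX4I1 in low oxygen. It read 102, 99, 107 and 98 on the control arrays, none above background, and 282, 264 and 300 in DMSO at 24 h, 369, 393, 386 and 339 at 48 h, and 416, 417, 356 and 409 at 72 h. No control array overlapped a DMSO array, and the level was at least 4.63-fold, 7.50-fold and 8.36-fold higher. The measured differences had limma adjusted p = 3.28e-11, 1.15e-14 and 3.53e-15, and the bounds themselves were not tested. In these bounds the control stands at the lowest signal called above background, and the same rule gave the bound for DCN. COX4I1, the usual isoform, differed by 0.01, -0.04 and -0.27, and none was called. The list median was 0.30, 0.26 and 0.17, against about -0.01 to -0.02 over all genes.

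With PP242, COX4I2 did not follow COXFA4L2 at 24 h. Its PP242 arrays at 24 h read 282, 256, 252 and 180, a change of -0.10 that was not called. At 48 and 72 h it changed by -0.88 and -1.25, both called. Of the 9 complex IV subunits, 3, 2 and 1 were lower with PP242, against 11.3%, 5.79% and 5.47% of all genes, so little is read from the 1 at 72 h. With the block 5 were lower at 48 h and 3 at 72 h, where the block called 19.8% and 17.1% of all genes in either direction. At 24 h these were COX4I1 (-0.36), COX6C (-0.63) and COX7B (-0.67).

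The subunits of complex I, the complex that COXFA4L2 is known to dampen, had few calls in DMSO. Of 31 measured of 37, none was called at 24 h, 1 was lower at 48 h (4 with the block) and 3 at 72 h. NDUFA6 was the one at 48 h (-0.51), and NDUFA6 (-0.92), NDUFB2 (-0.66) and NDUFA9 (-0.61) were the 3 at 72 h. In these comparisons 0.182%, 7.12% and 13.4% of all genes were called lower. The block called 23.6% of all genes in either direction at 48 h. With PP242 at 24 h 13 of the 31 were lower, where 11.3% of all genes were, at the most -0.84 for NDUFS5, and 1, NDUFA10, was higher (0.55), where 10.4% of all genes were called higher. At 48 h 5 were lower (10 with the block) and at 72 h none was (1 with the block), where 5.79% and 5.47% of all genes were called lower. With the block, 19.8% and 17.1% of all genes were called in either direction at 48 and 72 h. The complex I median went from -0.44 at 24 h to -0.29 and -0.11, while the COXFA4L2 change went from -1.56 to -2.68 and -3.59.

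Genes of mitochondrial adaptation to low oxygen were mixed. Of 11 measured of 12, 6, 6 and 5 rose in DMSO at 24, 48 and 72 h and 3, 3 and 4 fell with PP242 (5 with the block at 24 and at 48 h, and 1 lower in DMSO at 48 h). Of all genes, 0.831%, 6.72% and 11.3% were called higher in DMSO, and 11.3%, 5.79% and 5.47% lower with PP242. In either direction, the block called 29.9% and 19.8% of all genes with PP242 at 24 and 48 h, and 23.6% in DMSO at 48 h. AK4, a mitochondrial adenylate kinase, rose by 3.13, 3.62 and 3.54 and changed with PP242 by -1.13, -1.43 and -1.07, each called. BNIP3, a receptor for removal of mitochondria, rose by 2.51, 2.74 and 2.53 and changed with PP242 by -0.74, -0.83 and -0.74, each called. Its relative BNIP3L rose by 2.21, 2.74 and 2.71 and changed with PP242 by 0.25 and -0.27, not called, and then by -0.55, called. PDK1, the kinase that blocks pyruvate entry to mitochondrial oxidation, was dim. It was at least 1.45-fold higher at 24 h and at least 1.497-fold at 48 h, with no control array above background. The measured differences, not these bounds, had limma adjusted p = 0.0298 and 0.00130. At 72 h the difference was not called (limma adjusted p = 0.0567). HIGD1A, a hypoxia-induced respiratory chain factor, differed by 0.68, 0.03 and -0.03, and LONP1, a mitochondrial protease, by 0.10, 0.46 and 0.27, none called. The HIGD1A differences rest on control arrays that ranged from 300 to 1972 in intensity (log2 SD 1.23). With PP242 at 24 h HIGD1A changed by -1.26, which was not called (limma adjusted p = 0.0801). With dim genes at their bound, the list's median rise was 0.68, 0.58 and 0.27.

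Most known hypoxia targets outside mitochondria rose in DMSO. Of 19 measured of 24, 18, 19 and 19 rose in DMSO, with a median of 2.09, 2.86 and 2.63, where 0.831%, 6.72% and 11.3% of all genes rose. With PP242, 11, 15 and 15 fell, with a median of -0.68, -1.45 and -1.11, where 11.3%, 5.79% and 5.47% of all genes fell. NDRG1, a stress-responsive gene, was nearest to COXFA4L2 in size, with rises of 3.67, 5.44 and 5.52 and PP242 changes of -0.37 (not called), -1.70 and -1.83. VEGFA, the angiogenic growth factor, rose by 2.09, 3.61 and 3.93 and changed with PP242 by -0.31 (not called), -1.47 and -1.88. SLC2A1, a glucose transporter, rose by 1.73, 2.75 and 2.62 and changed with PP242 by -1.46, -2.07 and -1.88, each called. The strongest fall in the list was -1.64 (ALDOC, an aldolase) at 24 h, -2.07 (SLC2A1) at 48 h and -2.12 (BHLHE40, a transcriptional repressor) at 72 h, against -1.56, -2.68 and -3.59 for COXFA4L2. CA9 has no probe named here. In the promoter search, 19 of the 21 genes of this list with a window held at least 1 of the 2 motifs in any of their windows, as did 52.4% of all 27305 genes with a window.

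**Figure D4:**
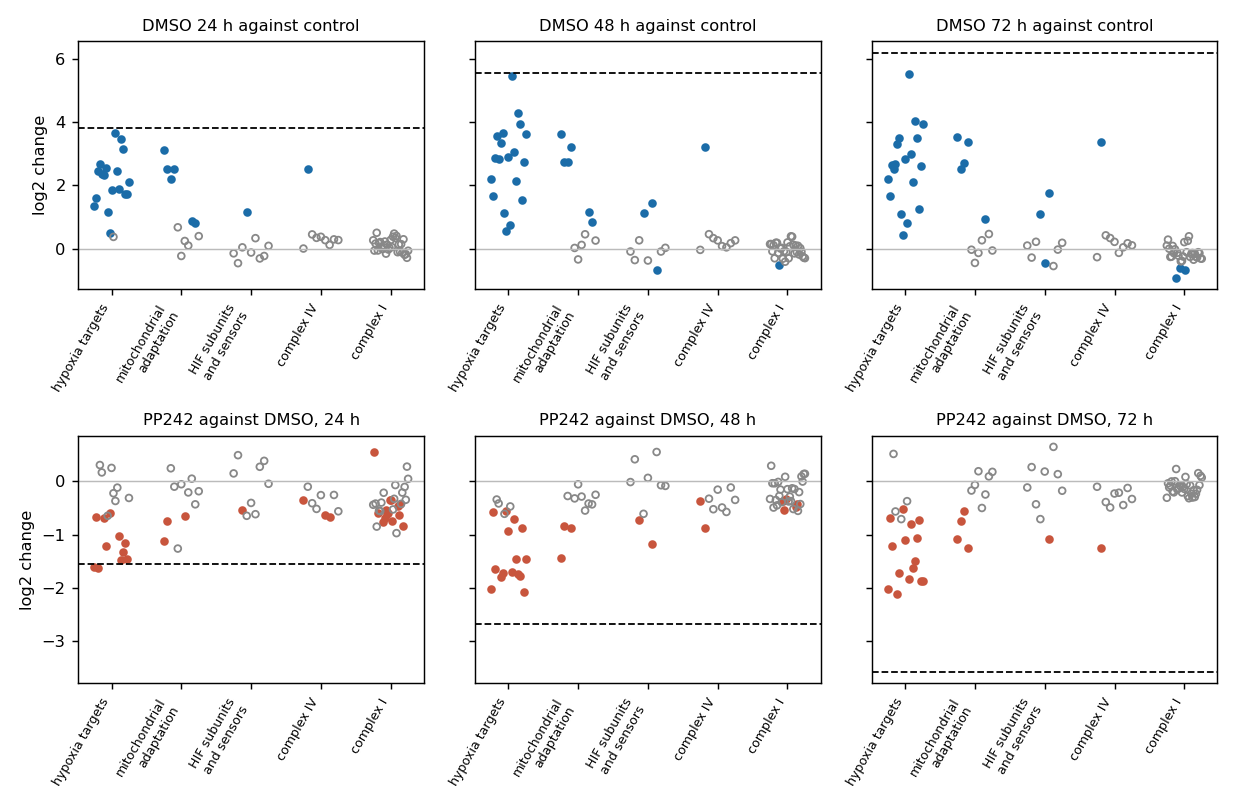
Log2 changes of the measured members of each list, for DMSO against the control and PP242 against DMSO, with filled points for adjusted p under 0.05, open points otherwise, and the COXFA4L2 value as a dashed line. COX4I2 and EGLN1 are each in 2 lists, and COXFA4L2 lies above every member in DMSO at 24 h (3.82) and below every member with PP242 at 72 h (-3.59).

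Of the HIF subunits and oxygen sensors, 9 of 11 were measured. EPAS1, which encodes HIF2A, read 121, 149, 128 and 137 on control arrays and 261, 311, 244 and 306 in DMSO at 72 h, without overlap. Its differences in DMSO were 0.33 (not called), 1.44 and 1.75, and with PP242 it changed by -0.62 (not called), -1.17 and -1.09. HIF1A differed by -0.31 (not called), -0.68 and -0.55 (not called) in DMSO, and by 0.28, 0.55 and 0.65 with PP242, none called. ARNT, the shared beta subunit, was not called in any of these comparisons. Its probe was dim, with group mean intensities of 110 to 119. It was above background on 3 of 4 control arrays and 2 of 3 DMSO arrays at 24 h, so little is read from the missing calls. The prolyl hydroxylase EGLN1 rose by 1.15, 1.14 and 1.09. With PP242, 1, 2 and 1 of the 9 were lower, namely CITED2 at 24 h, CITED2 and EPAS1 at 48 h and EPAS1 at 72 h, and 4 and 3 with the block at 24 and 72 h. Of all genes 11.3%, 5.79% and 5.47% were called lower, so the 1 of 9 at 24 h is near the background. With the block 1 of the 9 was also higher at each time, against none without it. The block called 29.9%, 19.8% and 17.1% of all genes in either direction at 24, 48 and 72 h, so nothing is read from the 1 higher. These are transcript levels, and the HIF proteins were not measured.

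The genes most like COXFA4L2 over the 7 group means were found by Pearson's r among 1367 genes spanning at least 1 on the log2 scale. Of these, 73 had r above 0.9 and 14 below -0.9. The 7 points share the same 27 arrays and the order of 2 strong contrasts, so r is a description of likeness and no test was made. The 10 most alike were HK2 (0.991), DDIT4 (0.988), GPI (0.984), NCK1 (0.984), PLOD2 (0.982), BHLHE40 (0.982), VEGFA (0.981), SLC18A1 (0.980), TMEM45A (0.970) and PPP1R3C (0.970). HK2 encodes hexokinase 2, the first enzyme of glycolysis, and its group order was that of COXFA4L2 in all 7 groups, with a Spearman rho of 1.00. DDIT4 encodes REDD1, a stress-induced inhibitor of mTOR complex 1. GPI is the glycolytic glucose-6-phosphate isomerase, PLOD2 a collagen lysyl hydroxylase, SLC18A1 a vesicular monoamine transporter, NCK1 a signalling adaptor and PPP1R3C a glycogen-targeting phosphatase subunit.

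The other 9 had a Spearman rho of 0.857 to 0.964, so their group order was not that of COXFA4L2 throughout. The 10 spans were 1.08 to 3.93 on the log2 scale, against 6.19. HK2 went from 7.31 in the control to 8.96, 9.81 and 9.87 in DMSO at 24, 48 and 72 h, and to 8.49, 8.72 and 8.63 in PP242. VEGFA also moved with COXFA4L2 from array to array within groups, with r = 0.826 over the 27 deviations from group means, while PLOD2 did not (-0.045). These were the extremes of the 10, and the rest lay between 0.145 (SLC18A1) and 0.687 (BHLHE40). Same-number arrays deviated together, and the part of the sample number in these r values was not tested. The 5 most opposite genes were SLF2 (-0.988), PARM1 (-0.978), SLC4A7 (-0.969), TMOD2 (-0.961) and SLC5A6 (-0.950). SLF2, known for a role in DNA repair, differed from the control by -1.40 in DMSO at 72 h and by -0.59 in PP242 at 72 h. Of the 10 most alike, 6 were also among the first 10 by Spearman's rho, and 6 by r over the 27 arrays.

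**Figure D5:**
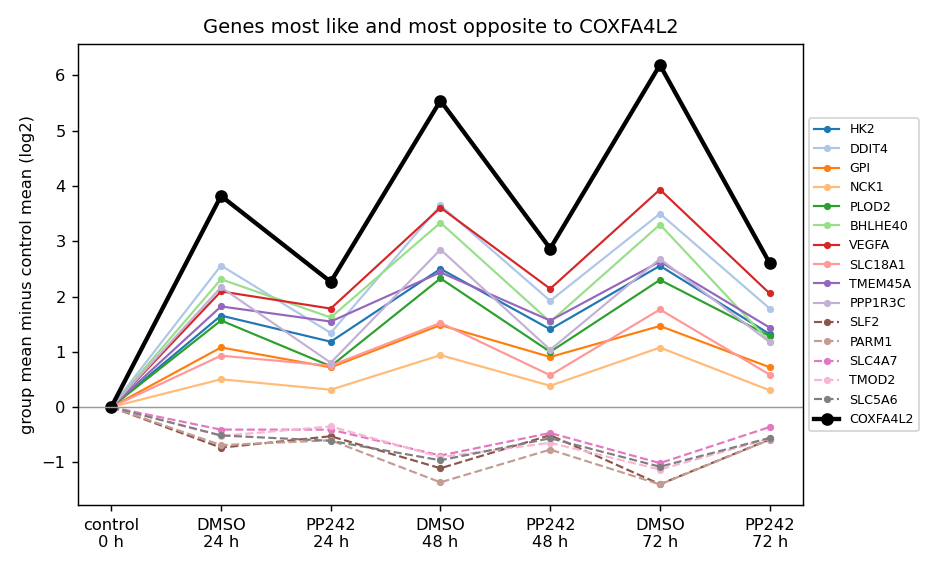
Group means relative to the 0 h control (log2) for COXFA4L2, the 10 genes most like it (solid) and the 5 most opposite (dashed), over the 7 groups. COXFA4L2 reaches 6.19 in DMSO at 72 h, the 10 others reach at most 3.93, and all 11 are lower in PP242 than in DMSO at each time.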

How the data were processed

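Total RNA was hybridised as biotin-labelled cRNA, per the labels' protocols. The deposited non-normalized table gives whole-number intensity values of 48107 probes, with no detection p-values; background and scanner steps are not given in the sources used here. The deposited value table holds the authors' normalized intensity values of 27367 probes on a linear scale, and was used as an alternative. No column was left unmapped (0 columns). Of the value table's probes, 23495 have 1 gene symbol, 1 has several and 3871 have none in the platform annotation. Symbols were matched by gene ID, which changed none of them.

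Intensities were corrected by normexp (offset 16), transformed to log2 and quantile normalized. The mode of an array's signals (kernel bandwidth 1.5) served as its background, and signals under the mode gave the SD. A probe stayed if its signal had p under 0.05 against that background on 3 or more arrays (31153 probes, of which 14753 carry no name), and the brightest probe stood for a gene, leaving 12631 genes. No detection p-values were held, so this stand-in replaced them. One limma 3.58.1 model in R 4.3.3 over the 7 groups gave log2 changes with moderated SE, and Benjamini-Hochberg adjustment ran over all genes of a comparison, at 0.05. The fit was tested on simulated data. "The block" adds the sample number to the model: same-number arrays deviated together, with every pair's r above 0.1 in each comparison except DMSO at 72 h against the control (lowest 0.0980).

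The gene, the lists and the rules for naming genes were chosen with earlier results of these data known. Named genes were the family, the 10 most like and 5 most opposite genes, 13 genes always named and up to 6 members of each list past the threshold. The number of arrays limits the precision. Sequences are from RefSeq.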

Additional observations from a re-analysis of the deposited data

Results flagged for a closer look

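The difference between the PP242 effects on COXFA4L2 at 72 and 24 h (-2.03, limma adjusted p = 0.0411) stood out because the effect of the same contrast differed between times. Among 90 groups of 4 arrays examined for COXFA4L2, its 2 paralogs and the 12 measured genes always named, 6 held an array far from the other 3, where chance gives about 1 in 20. On the log2 scale, COXFA4 was 12.41 on control replicate 4 against 13.22 to 13.30 on the other control arrays. COX4I2 was 7.86 on DMSO 48 h replicate 4 against 8.32 to 8.36. VEGFA was 9.87 on the same array against 10.53 to 10.67. COX4I2 was 7.49 on PP242 72 h replicate 2 against 6.98 to 7.03. HIF1A was 9.64 on PP242 24 h replicate 4 against 8.76 to 8.85. NDRG1 was 10.27 on PP242 48 h replicate 3 against 9.60 to 9.69. Of these 6 values, 4 came from arrays numbered 4. COXFA4L2 itself had no such array in any of its 6 groups of 4.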

How the results depend on the processing

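Under 10 alternatives each, PP242 against DMSO for COXFA4L2 kept its direction and its call at 24 h (-1.83 to -1.21, limma adjusted p up to 0.0310), 48 h (-2.84 to -2.38) and 72 h (-3.60 to -3.06). The block changed no other COXFA4L2 call than that of the 48 h minus 24 h effect (-1.39). Leaving out single arrays gave -1.93 to -1.14 at 24 h, -2.99 to -2.36 at 48 h and -3.96 to -3.01 at 72 h; for the 72 h minus 24 h effect -2.45 to -1.45, and for PP242 at 72 h against 48 h -0.64 to 0.31, reversed at 0.05 and 0.31. The 72 h minus 24 h effect was no longer called with 1 median per array (-1.77) or with the groups compared alone (-2.03). Against the control, DMSO at 24, 48 and 72 h gave 2.54, 4.14 and 4.76 without background correction, 3.01, 4.67 and 5.31 with an offset of 50, and 2.52, 4.13 and 4.76 from the authors' values. PP242 gave 1.29, 1.74 and 1.58 without background correction, 2.14 at 48 h with the offset of 50, and 1.30, 1.75 and 1.59 from the authors' values. A larger offset or no correction adds a constant to low signals, so the control's dim probe limits these sizes.

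Counts of called genes moved by more than 1.5 times as follows. With the block they were 361 for DMSO at 24 h (main 128), 2987 at 48 h (main 1748), 2506 and 2165 for PP242 against DMSO at 48 and 72 h (main 1291 and 1123), 578 for PP242 at 48 h against 24 h (main 144) and 14 for 72 h against 48 h (main 1). Fitting the groups compared alone gave 67, 955, 6 for PP242 at 48 h against 24 h, and 0 for 72 h against 48 h. PP242 at 48 h against 24 h had 57 with 1 median per array and 40 without arrays numbered 4, a setting added after those arrays were seen. PP242 at 72 h against 48 h had 0 without background correction, with the offset of 50, from the authors' values and without arrays numbered 4. It had 3 with no filter and 2 with the strict filter. In that comparison 610 of 12631 genes had an unadjusted limma p under 0.05, about as many as this threshold passes when no gene differs. Single arrays left out gave 80 to 145 for DMSO at 24 h, 23 to 296 for PP242 at 48 h against 24 h and 0 to 5 for 72 h against 48 h. The genes most like COXFA4L2 kept 6 of 10 by Spearman's rho and 6 by r over arrays. The cause of these shifts was not tested. One median per array moved the median of all genes by over 0.1 in 1 comparison, PP242 at 48 h against the control (from -0.02 to -0.12).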
